A study of Homo sapiens with 8 samples.

Results

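The cytosolic ribosomal protein genes were taken as every row of the count table whose GENCODE symbol names a protein-coding protein of the cytosolic ribosome: RPL or RPS followed by a digit, RPSA, RPLP0, RPLP1 and RPLP2. RPS6K kinases, RPS27L, RPS19BP1, readthrough genes and pseudogenes were left out. Of 86369 rows, 86 met this rule, 33 for the small subunit and 53 for the large subunit. The cells were HepG2, an established hepatocellular carcinoma line that makes many hepatocyte proteins, grown under one culture condition and given by lipofection either a short interfering RNA (siRNA) against the acetyltransferase gene NAT10 (siNAT10) or a negative control siRNA (siCtrl). RNA was taken 2 days after transfection, and poly(A) RNA was counted at its 3' end with a QuantSeq kit. Each group had 4 libraries, and the labels divide every group evenly between 2 batches: the first pair of replicates (1 and 2) belongs to batch 1 and the second pair (3 and 4) to batch 2. The labels do not say whether replicates were separate cultures, so p-values measure the spread between these libraries, which may be technical. A single cell line and a single time point were profiled, and the labels used here describe neither the siRNA sequences nor a rescue.

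A cytosolic ribosome holds a small subunit, which reads the mRNA, and a large subunit, which joins amino acids. Its proteins are made in the cytoplasm, carried into the nucleolus and built onto ribosomal RNA. Their mRNAs are among the most abundant of a growing cell and typically begin with a pyrimidine run, the terminal oligopyrimidine (TOP) tract, through which mTOR signalling and the RNA-binding protein LARP1 set how much they are translated. NAT10 acetylates cytidines in 18S ribosomal RNA, the RNA of the small subunit, as well as in other RNAs. The ribosomal protein genes have also left many processed pseudogenes in the genome, intronless copies made by reverse transcription of their mRNA, called retrocopies here.

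The TOP tract was sought at the RefSeq transcription starts (build GRCh38.p14) because it is the feature that this gene family shares. It was defined as a C followed by at least 4 more C or T, on the transcribed strand only, and beginning within 5 bases of the start. RefSeq starts were matched for 69 of the 86 members. The tract lay within 5 bases of a start in 56 of these 69 members (81.2%), against 25.2% of the 27305 genes with a start. It began exactly at a start in 48 members (69.6%), against 5.14% of all genes. The median tract of the members that had one was 10.5 bases. The 13 members without a tract within 5 bases of a matched start were RPL10L, RPL15, RPL17, RPL26L1, RPL27, RPL6, RPL7L1, RPL9, RPS15, RPS26, RPS29, RPS4X and RPS4Y2. A run further from the start was not counted. A match describes these letters and is not evidence of regulation.

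The windows below run from 15 bases before the RefSeq start, and capitals mark the tract. They are shown for 7 members whose library values are given further on, and for RPL22, RPL26 and RPL26L1 to set close relatives side by side. RPS6 at chr9:19380222-19380251, RPS23 at chr5:82278340-82278369, RPL39 at chrX:119791616-119791645, RPS13 at chr11:17077653-17077682, RPL22 at chr1:6199581-6199610, RPL22L1 at chr3:170870181-170870210 and RPL26 at chr17:8383179-8383208, all on the minus strand, held a tract.
RPS6: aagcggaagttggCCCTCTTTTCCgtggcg
RPS23: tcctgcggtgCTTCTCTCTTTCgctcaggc
RPL39: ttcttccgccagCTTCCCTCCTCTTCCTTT
RPS13: ttccactctcgCTCTCCTTTCgttgcctga
RPL22: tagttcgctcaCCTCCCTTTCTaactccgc
RPL22L1: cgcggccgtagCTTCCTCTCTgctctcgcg
RPL26: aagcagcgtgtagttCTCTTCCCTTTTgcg
The tract of RPL39 was 22 bases long and ran past the end of the window. No tract began within 5 bases of the start at RPL26L1 (chr5:172958714-172958743), RPL7L1 (chr6:42879601-42879630) or RPS15 (chr19:1438381-1438410), all on the plus strand. The C and T run at the end of the RPS15 window begins beyond that distance.
RPL26L1: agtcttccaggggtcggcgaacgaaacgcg
RPL7L1: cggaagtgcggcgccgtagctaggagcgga
RPS15: tgcgcaggcgcggaccaaagcgatctcttc
RPL22 and RPL22L1 both carried a tract, whereas RPL26 did and RPL26L1 did not.

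Library totals ran from 9731718 to 27977110 counts, and siNAT10 replicates 3 and 4 were the shallowest. Abundance is given as CPM, counts scaled to a common library total, after adjustment by the trimmed mean of M values (TMM). The targeted gene NAT10 fell to 31.6% of its siCtrl level, from 52.6 ± 17.2 to 16.9 ± 5.04 CPM (SD, n = 4), and every siNAT10 library lay below every siCtrl library (exact two-sided permutation p = 0.029, the smallest that 70 arrangements allow). Its fitted log2 fold change was -1.66 (SE 0.14, adjusted p = 2e-05, edgeR quasi-likelihood test). The hepatocyte-like markers ALB (3917 CPM) and AFP (1521 CPM) were abundant, and 7 of the 8 hepatocyte markers were tested. SERPINA1 stood at only 4.97 CPM and APOB at 0.041 CPM. Of 9 markers of leukocytes, endothelium, fibroblasts and squamous epithelium only CD68 (2.13 CPM) passed the filter on low counts.

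On their own rows the 86 members took 9.30% to 10.9% of the counts of a library. The lowest share was that of siCtrl replicate 2 and the highest that of siCtrl replicate 3. The small subunit took 3.76% ± 0.19 of counts in siCtrl and 3.75% ± 0.072 in siNAT10, and the large subunit 6.41% ± 0.56 and 6.32% ± 0.10 (SD, n = 4 each). The groups overlapped for both subunits, and the siCtrl libraries were the more spread.

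A count of at least 1 was recorded for 82 members, and 70 reached a mean of 10 CPM, 25 of the small and 45 of the large subunit. The most abundant members were RPL37A (15920 CPM) and RPL27A (9929 CPM) of the large subunit, followed by RPS14 (5379 CPM) of the small subunit. RPL37A stood between 14250 and 17761 CPM over the 8 libraries. The 16 members under 10 CPM, 8 of each subunit, are described apart below. They include proteins that every ribosome needs, such as RPS3A, RPS9, RPL7A and RPL3.

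Much of the signal that resembles ribosomal protein mRNA was counted on retrocopies and not on the genes. A retrocopy was assigned to a member when an annotated processed pseudogene aligned to its transcript at 85% identity or more. The 1440 assigned retrocopies held 12349138 counts, against 15322900 on the members' own rows. They took 7.57% to 8.72% of a library, so that genes and retrocopies together took 16.9% to 19.5%. Of the 83 members with any count on either row, 15 had under 1% of it on their own row and 26 under 10%, whereas 30 had over 95%. In shares given below, a member's counts are those of its own row and its retrocopies together, wherever the reads arose.

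**Figure D1:**
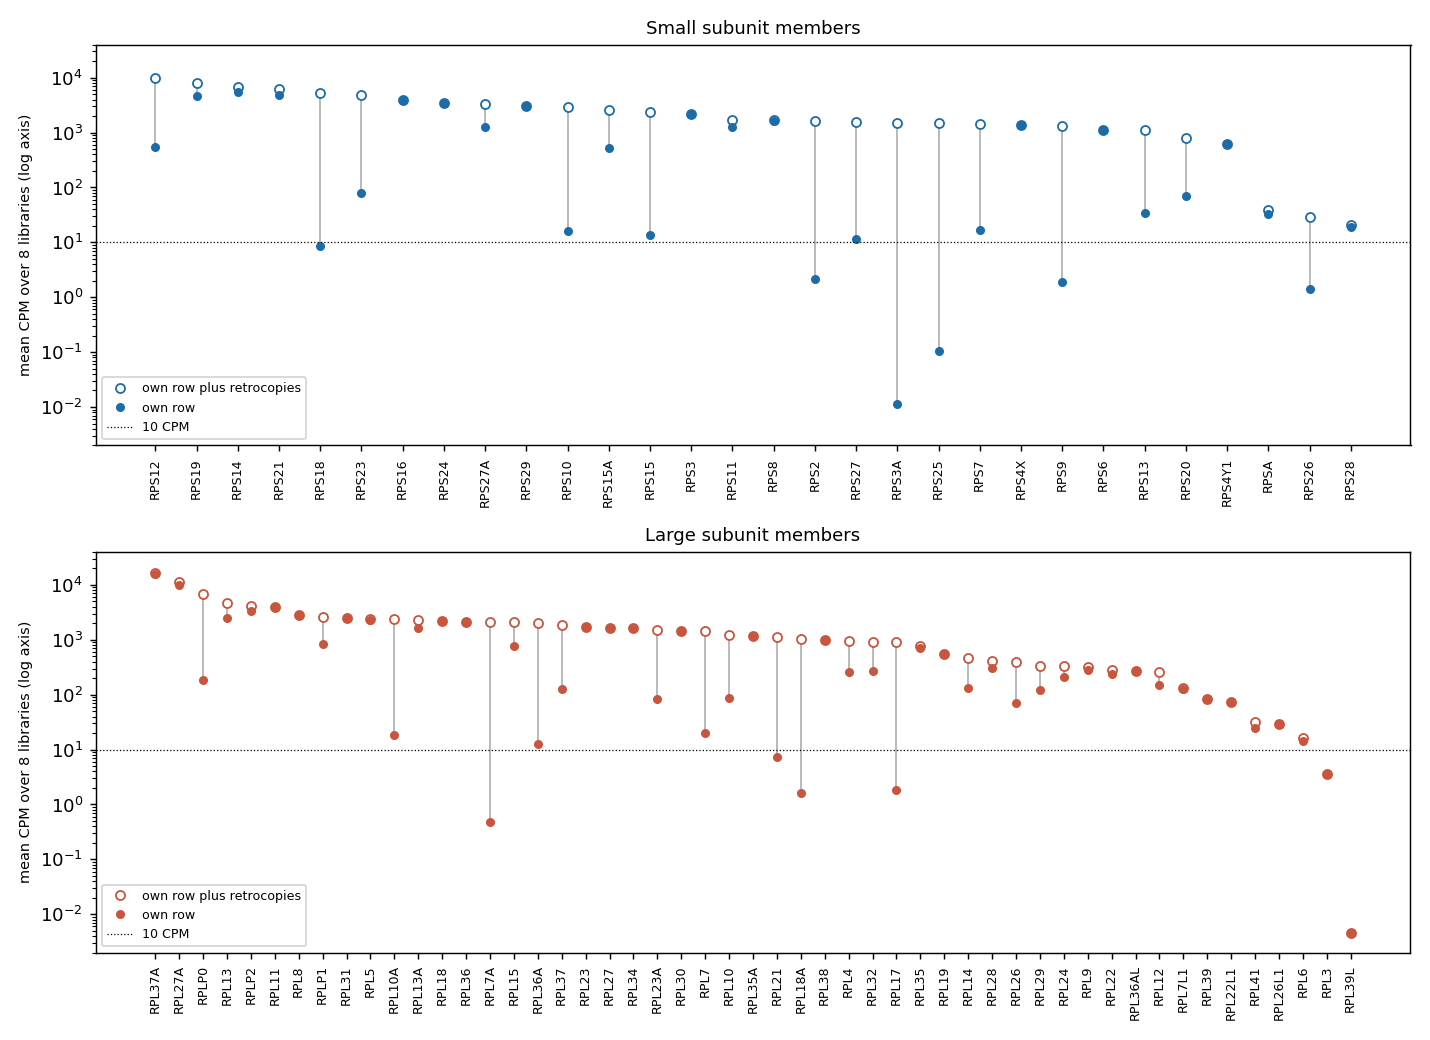
Mean CPM over the 8 libraries (log axis) for each member with a count, small subunit above and large subunit below, ordered by the summed level. Filled points are the member's own row, open points the own row plus its retrocopies, and the dotted line is 10 CPM. 2 members are not drawn. RPS3A had 0.012 CPM on its own row and 1510 CPM with retrocopies, while RPL37A moved only from 15920 to 16167 CPM.

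Some widely needed genes stood near 0 on their own rows while their retrocopies held many counts. RPS3A, a small subunit protein, had 0.012 CPM on its own row and 1510 CPM with retrocopies, and RPL7A had 0.47 and 2097 CPM. RPLP0, which forms the base of the large subunit stalk, had 186 CPM on its own row, or 2.69% of a summed 6882 CPM. At the other end RPL30, RPL38 and RPL18 had over 99.9% of their counts on their own rows. Fold changes of RPS3A and RPL7A could not be fitted on the own row, and those of RPLP0 rested on a small part of its counts.

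For 53 members the leading retrocopy, the one with the most counts, held at least 1000 counts, and in 38 of them it held over 90% of all retrocopy counts. The largest were ENSG00000227615, a copy of RPS12, with 1400895 counts, RPLP0P9 with 929362, RPS23P8 with 749129 and RPS18P5 with 738759. These leading copies aligned at a median identity of 97.6%, compared with 93.1% for the 558 other retrocopies with a count and 90.02% for the 829 with none. They also differed in what follows them in the genome. In the 200 bases after the annotated end, the longest run of A had a median of 16 bases in the leading copies, 9 in the other counted copies and 7 in those without a count. A run of at least 12 A followed 66.0%, 31.5% and 11.9% of them.

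The A runs are shown because the kit primes on A stretches; whether reads arose at these genomic runs, from transcripts of the genes or from the copies themselves was not tested, and how the authors treated reads with several alignments is not given in the sources used here. For each pair the first line is the retrocopy, from 10 bases before its longest A run, and the second is the end of the parent's canonical transcript, its last 10 bases and the next 20, from the GRCh38 reference. Capitals mark the longest run of A in a retrocopy's window and, for a parent, the longest run of A within the 20 bases after its end. The copies lie at chr11:74745675-74745704 (minus strand, parent RPS12 at chr6:132817555-132817584, plus), chr5:166382661-166382690 (plus, parent RPLP0 at chr12:120196679-120196708, minus), chr3:61742404-61742433 (minus, parent RPL10A at chr6:35470771-35470800, plus) and chr2:171517219-171517248 (minus, parent RPS15 at chr19:1440486-1440515, plus).
ENSG00000227615: tttggctcacAAAAAAAAAAAAAAAAAAAA
RPS12: ttggctcacattcctcAtgtctggcttttt
RPLP0P9: ttacttctttAAAAAAAAAAAAAAAAgagt
RPLP0: ttaaaaagtctctggactcttAAttttgta
RPL10AP6: ttaccagttcAAAAAAAAAAAAAAAAAAAA
RPL10A: attaccagttccctctgtctgcctgtgAtt
RPS15P4: acatgactccAAAAAAAAAAAAAAAAAgaa
RPS15: atgactccagtcctttgcgcAgcttgttct
RPS18P5 differed from these copies, since its longest run was 8 A and it still held 738759 counts.

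The effect of NAT10 knockdown on the members was read from a fit over all 13840 genes that passed the filter on low counts, with batch and siRNA as terms. None of the 78 tested members was called at an adjusted p under 0.05 by edgeR's quasi-likelihood test, against 2.28% of all tested genes, and DESeq2 also called 0. At an unadjusted p under 0.05, 3 of the 70 members of at least 10 CPM passed, against 15.7% of all tested genes. The 95% interval of the log2 fold change lay within 0.5 of 0 for 59 of the 70 and within 1 of 0 for all 70. The fitted standard errors had a median of 0.12, and those of all genes of at least 10 CPM also had a median of 0.12.

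In the small subunit, 18 of 25 members had a fitted value below 0, and the median was -0.068. In the large subunit, 34 of 45 were below 0 and the median was -0.065. Over all tested genes the corresponding median was -0.0024, with 50.3% of genes below 0. The medians depended on single libraries. Without siCtrl replicate 3 they were -0.007 for the small and -0.025 for the large subunit, without siCtrl replicate 1 -0.033 and -0.045, without siCtrl replicate 2 -0.086 and -0.12, and without siNAT10 replicate 4 -0.047 and -0.029. With library size alone in place of TMM they were -0.028 and -0.026.

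**Figure D2:**
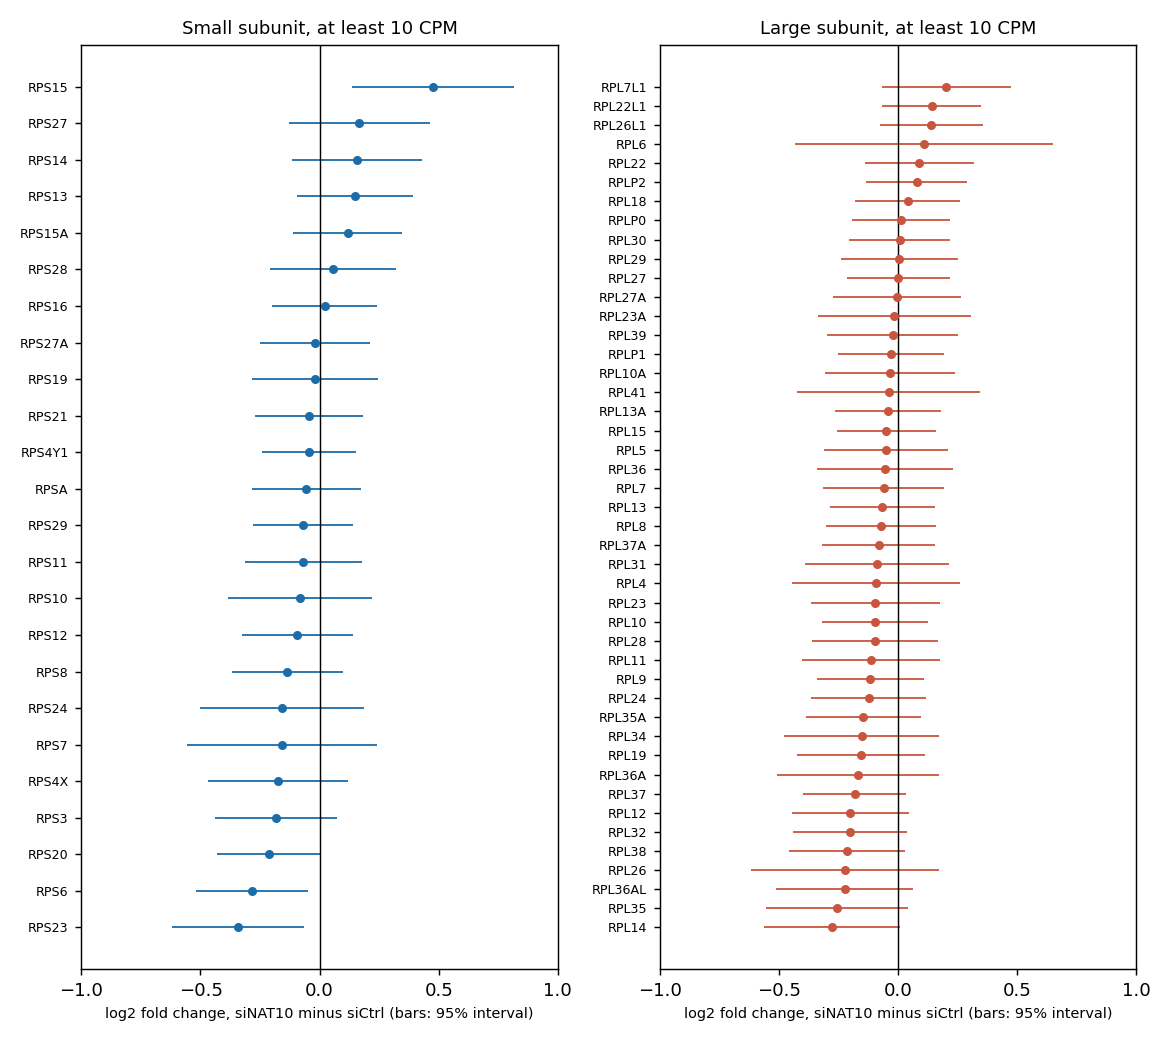
Fitted log2 fold change, siNAT10 minus siCtrl, for the members of at least 10 CPM, small subunit on the left and large subunit on the right; bars are 95% intervals, and 1 of the 70 is not drawn. Values run from -0.34 (RPS23) to 0.48 (RPS15), and the intervals of RPS15, RPS6 and RPS23 do not reach 0.

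RPS15, a small subunit protein near the decoding site, had the highest value of the tested members. Its own row (ENSG00000115268; chr19:1438358-1440495, plus strand) held 13.7, 7.25, 11.8 and 12.3 CPM in siCtrl replicates 1 to 4 and 14.7, 14.9, 16.9 and 16.3 CPM in siNAT10. Every siNAT10 library was above every siCtrl library. The log2 fold change was 0.48 (SE 0.16) and was not called (edgeR adjusted p = 0.14). Only 0.57% of its counts were on this row. With retrocopies added the libraries held 2470, 1804, 2355 and 2256 CPM in siCtrl and 2366, 2376, 2530 and 2725 CPM in siNAT10, so that the groups overlapped, and the value was 0.17 (adjusted p = 0.51).

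RPS23 and RPS6, both of the small subunit, had the lowest values among members of at least 10 CPM. RPS23, which lies at the decoding centre, stood at 90.2, 74.3, 115 and 72.5 CPM in siCtrl and at 71.7, 69.7, 68.8 and 66.9 CPM in siNAT10 (ENSG00000186468; chr5:82273320-82278396, minus strand). The groups did not overlap, and siCtrl replicate 3 was the highest. The log2 fold change was -0.34 (SE 0.13, edgeR adjusted p = 0.20), -0.16 without siCtrl replicate 3, and -0.19 with retrocopies added, which held all but 1.59% of its counts.

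RPS6, the substrate of the S6 kinases, had 99.8% of its counts on its own row (ENSG00000137154; chr9:19375715-19380236, minus strand). It stood at 1225, 1166, 1395 and 1076 CPM in siCtrl and at 1001, 1077, 1015 and 903 CPM in siNAT10. Both siNAT10 libraries were below both siCtrl libraries within each batch, although siCtrl replicate 4 lay within the siNAT10 range. The log2 fold change was -0.28 (SE 0.11) and was not called (edgeR adjusted p = 0.21), and it was -0.18 without siCtrl replicate 3.

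Counted by library, 1 member of the 70 (RPS15) had every siNAT10 library above both siCtrl libraries of its batch and 2 (RPS6 and RPS23) had every one below, where 14.7% of all tested genes did one or the other. The other low values were RPS20 at -0.21, RPS3 at -0.18 and RPS4X at -0.18 in the small subunit. The lowest of the large subunit were RPL14 at -0.28 (SE 0.13), RPL35 at -0.25 and RPL36AL at -0.22, and the highest were RPL7L1 at 0.20, RPL22L1 at 0.14 and RPL26L1 at 0.14. The adjusted p of the 3 highest lay between 0.48 and 0.55. RPL5 and RPL11, which bind MDM2 as part of the ribosomal stress response, had values of -0.05 and -0.11.

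The siRNA effect was then fitted within each batch. In batch 1, 34 of 70 members were below 0, and the medians were -0.026 for the small and 0.025 for the large subunit. In batch 2, 55 of 70 were below 0, and the medians were -0.11 and -0.15. Over all genes of each fit the medians were -0.0047 in batch 1 and 0.0030 in batch 2. Relative to the mean over the libraries, the large subunit median of log2 CPM was 0.19 in siCtrl replicate 3 and -0.13 in siNAT10 replicate 4. It was 0.024 in siCtrl replicate 4 and 0.020 in siNAT10 replicate 3. No member was called in either batch, where batch 1 alone called 173 of all genes and batch 2 alone called 0. Batch 2 alone did not call NAT10 either (edgeR adjusted p = 0.086), so its 0 does not set the members apart. The interaction of batch and siRNA was below 0 for 54 of 70 members, with a median of -0.15, and called 0 members, where it called 0.0% of all tested genes; at an unadjusted p under 0.05 it passed for 2 of 70 members and 3.04% of all genes. RPL6 and RPS7 had opposite signs in the 2 batches, at -0.45 and 0.70 for RPL6 and -0.56 and 0.27 for RPS7.

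**Figure D3:**
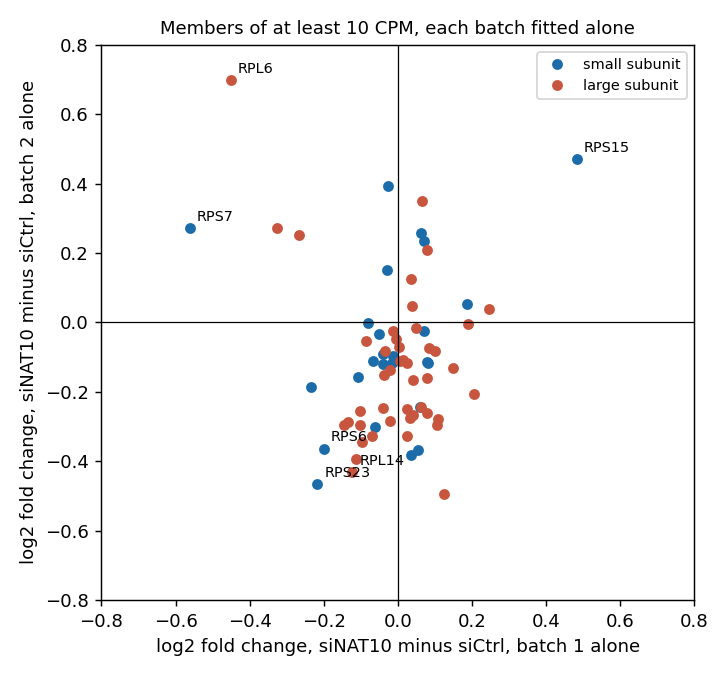
Log2 fold change, siNAT10 minus siCtrl, fitted in batch 1 alone (x axis) and batch 2 alone (y axis), 1 point per member of at least 10 CPM, coloured by subunit. In batch 2, 55 of 70 points lie below 0, against 34 of 70 in batch 1, and RPS15 is at 0.48 and 0.47.

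The 2 batches differed in 25.3% of all tested genes by edgeR's quasi-likelihood test, and in 32.1% of those of at least 10 CPM. Of the 70 members, 5 were called, 4 higher and 1 lower in batch 2. The median size of the batch difference, without sign, was 0.13 over the 70 members and 0.22 over all genes of at least 10 CPM. The batches did not overlap for 6 members (RPS4Y1, RPL27, RPL30, RPL7L1, RPL26L1 and RPL22L1), against 22.7% of all tested genes. The small subunit median was 0.0012 and ran from -0.060 (without siCtrl replicate 3) to 0.033 (without siNAT10 replicate 4) as each library was left out. That of the large subunit was 0.066 and ran from 0.010 (without siCtrl replicate 2) to 0.12 (without siCtrl replicate 1).

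RPL30, a large subunit protein, stood at 1258, 1175, 1289 and 1316 CPM in the batch 1 libraries (siCtrl 1 and 2, siNAT10 1 and 2) and at 1601, 1778, 1563 and 1624 CPM in batch 2. The batches did not overlap, and the log2 difference was 0.38 (SE 0.10, adjusted p = 0.011). RPL7L1, a paralog of RPL7, stood at 97.5, 111, 116 and 102 CPM in batch 1 and at 121, 148, 138 and 203 CPM in batch 2, a difference of 0.51 (SE 0.13, adjusted p = 0.0086). Its highest library was siNAT10 replicate 4.

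RPL22L1, a paralog of RPL22, went the other way. It stood at 81.9, 74.8, 93.9 and 91.9 CPM in batch 1 and at 58.8, 62.4, 65.5 and 58.6 CPM in batch 2, a difference of -0.48 (SE 0.10, adjusted p = 0.0023). All batch 2 libraries were below all batch 1 libraries. RPL22 itself had a difference of 0.09 and was not called.

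RPL39, a small protein at the exit tunnel, stood at 72.2, 70.3, 61.1 and 79.8 CPM in batch 1 and at 99.7, 93.8, 74.0 and 116 CPM in batch 2. The batches overlapped through siNAT10 replicate 3, and the difference was 0.43 (SE 0.13, adjusted p = 0.022). The call was lost when siCtrl replicate 1 (0.44, adjusted p = 0.056) or 2 (0.43, 0.057) was left out, and when siNAT10 replicate 1 (0.36, 0.083) or 4 (0.30, 0.080) was.

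RPS13, of the small subunit, stood at 31.6, 27.3, 29.4 and 32.4 CPM in batch 1 and at 30.6, 40.6, 41.5 and 41.8 CPM in batch 2. The difference was 0.35 (SE 0.11, adjusted p = 0.034), and siCtrl replicate 3 overlapped batch 1. Its own row held 3.04% of its counts. With retrocopies added the difference was 0.20 and the call was lost (adjusted p = 0.15). It was also lost when siCtrl replicate 2 (0.33, adjusted p = 0.088) or 4 (0.28, 0.13) was left out, and when siNAT10 replicate 1 (0.31, 0.11), 2 (0.36, 0.072), 3 (0.34, 0.075) or 4 (0.33, 0.054) was. RPS13 was not called either with library size alone (0.33, adjusted p = 0.062) or with no filter on low counts (0.32, 0.077).

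**Figure D4:**
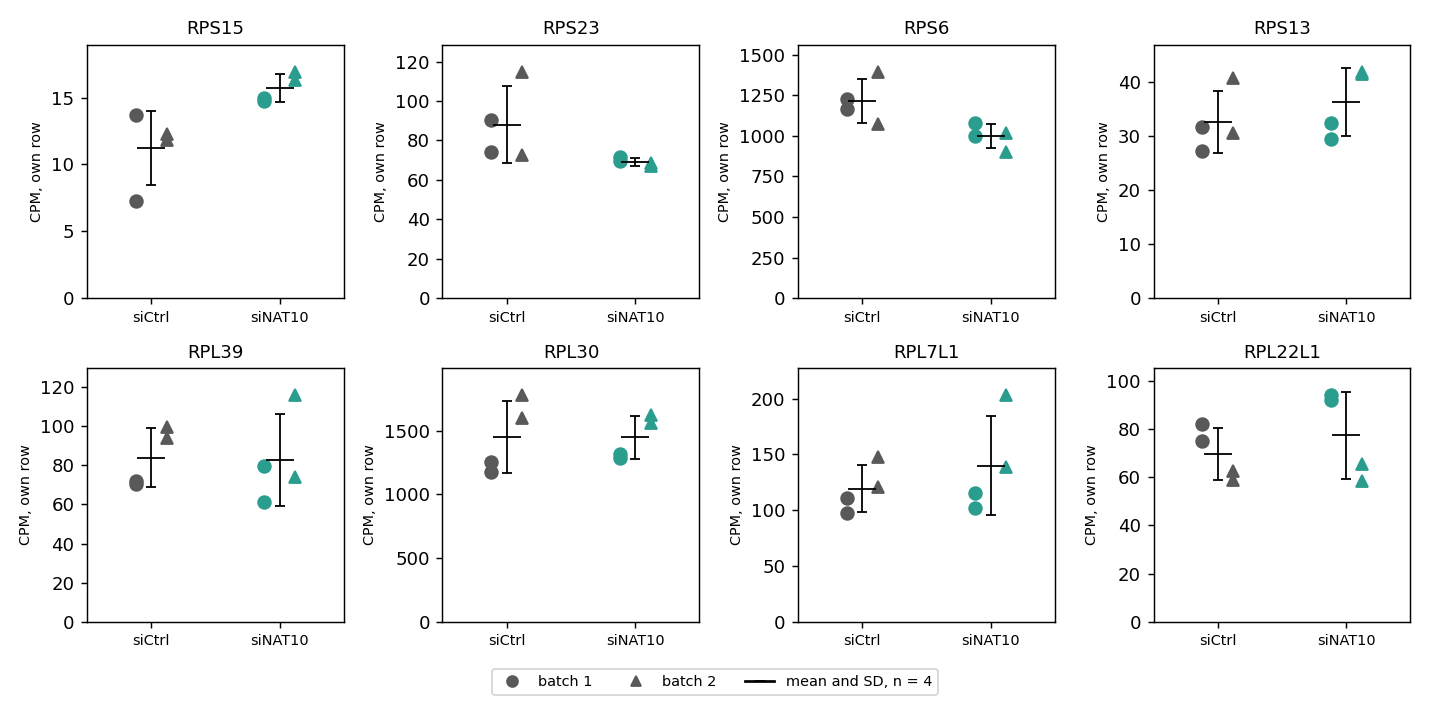
CPM on the own row in each library (y axis, from 0) for 8 members; circles are batch 1, triangles batch 2, and the bar is the mean with SD (n = 4). RPS15 is higher and RPS23 lower in all siNAT10 libraries, and RPL22L1 is lower in all batch 2 libraries.

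The effect of adding retrocopies was checked for every member. RPS26, under 10 CPM and not called, had a batch difference of 0.88 on its own row, which held 4.40% of its counts, and 0.061 with retrocopies. RPS9, also under 10 CPM and not called, moved from 0.74 to -0.10, and RPL26, with 17.7% on its own row, from 0.34 to -0.10. The SE of the batch difference ran from 0.14 to 0.36 over the tested small subunit members under 10 CPM. The siRNA value of RPS26 moved from 0.27 to -0.17. With retrocopies added, the siRNA effect called 0 members and 329 of all genes, and the batch difference 4 members and 3514 of all genes. The siRNA medians were then -0.061 for the small and -0.083 for the large subunit.

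**Figure D5:**
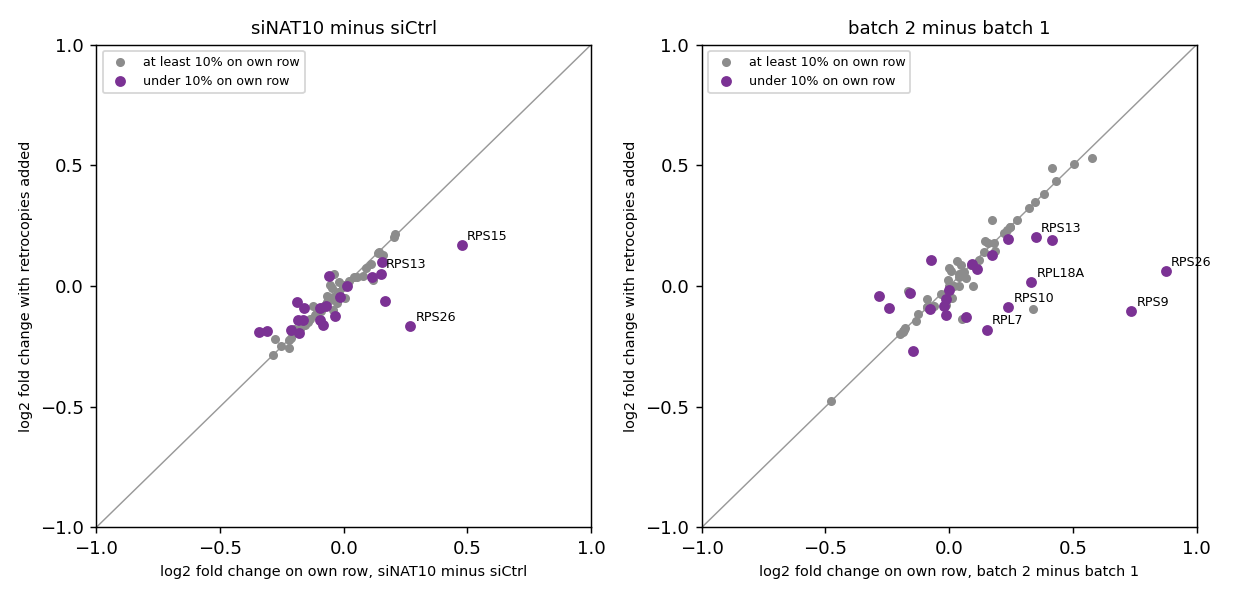
Log2 fold change of each tested member on its own row (x axis) and with retrocopies added (y axis), for siNAT10 minus siCtrl on the left and batch 2 minus batch 1 on the right; the line marks equal values. Purple points are members with under 10% of counts on their own row. RPS15 is at 0.48 and 0.17 on the left, and RPS26, under 10 CPM, at 0.88 and 0.061 on the right.

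Of the 16 members under 10 CPM, 8 passed the filter and none was called for siRNA or batch. Nearest to 10 CPM were RPS27 above it (11.5 CPM) and RPS18 below it. RPS18 had 8.91, 8.34, 10.4 and 10.3 CPM in siCtrl and 7.61, 8.03, 7.84 and 6.75 CPM in siNAT10. The groups did not overlap, the log2 fold change was -0.31 (SE 0.14, edgeR adjusted p = 0.31), and it was -0.19 with retrocopies, which held all but 0.16% of its counts. With retrocopies added, 11 of the 16 reached 10 CPM. The 5 that did not were RPL3, whose own row had 3.52 CPM, RPL39L with 1 count, and RPL10L, RPL3L and RPS4Y2 with 0. RPL10L, RPL3L and RPL39L are known from testis or muscle. A count of 0 in the 150446672 counts of all libraries allows up to 0.020 CPM (3 counts), for counting error only.

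Genes that work with the members were examined as lists. Among ribosomal proteins encoded under other names, FAU had a siRNA value of -0.04 and RACK1 of -0.13, and neither was called. Of 16 other tested genes from a list of TOP mRNAs, for which no tract is shown here, none was called, and the median was 0.0029. Among them were the elongation factor genes EEF2 at -0.08 and EEF1A1 at 0.15 and the initiation factor gene EIF2S3 at -0.26. EEF2 stood at 3897 CPM and EEF1A1 at 47.7 CPM, while EEF1B2 (0.13 CPM) and EEF1G (0.11 CPM) did not pass the filter. Retrocopies were not added for the genes of these lists. Of 18 genes of TOP regulation none was called; LARP1 had 0.12, MTOR -0.12, and the S6 kinase gene RPS6KB1 0.41 (SE 0.12, edgeR adjusted p = 0.079). The largest fitted value of that list was -1.11 (SE 0.42, edgeR adjusted p = 0.20) for DEPTOR, an mTOR inhibitor with a mean of 1.26 CPM. EIF3E and RPS6KB1 were called for batch, at 0.38 and 0.42.

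Of 15 tested chaperones and carriers of ribosomal proteins, none was called for siRNA. BCCIP, which escorts RPL23, had 0.37, LTV1, a small subunit assembly factor, 0.32, and NMD3, the export adaptor of the large subunit, -0.36, with adjusted p between 0.13 and 0.14. For batch, 4 were called higher and 1 lower in batch 2 (5 of 15, near the 32.1% of all genes of at least 10 CPM), among them GRWD1, a chaperone of RPL3, at 0.74 and ZNF277 at -0.63. RPS27L, a relative of RPS27 outside the rule, had 0.25 for siRNA (adjusted p = 0.28) and 0.54 for batch, where it was called.

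Of 7 genes of the ribosomal stress response none was called for siRNA. MDM2 had 0.14 and CDKN1A -0.02. MYC, which drives ribosomal protein transcription, had 0.46 (SE 0.13, edgeR adjusted p = 0.083). It passed with DESeq2 (adjusted p = 0.035), with no filter (0.032), with the replicate block (0.040) and without siCtrl replicate 4 (0.037). MYC did not pass in the other fits, among them thinned libraries (edgeR adjusted p = 0.15) and without siNAT10 replicate 2 (0.27). Over all genes, DESeq2 called 599 and the fit with no filter 595, against 315 in the main fit.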

How the data were processed

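Counts were whole numbers per gene that the authors deposited, made with Trim Galore 0.6.10, cutadapt 3.5, STAR 2.7.9a and featureCounts on GRCh38, per the submitters' processing notes. The annotation release, strand setting and handling of reads with several alignments are not given in the sources used here. The kit is called FWD in the series text and REV in the sample protocols, and the labels name the count matrix with a SLAM prefix that the deposited one lacks; both were taken as the same matrix. All 8 columns were mapped by the column named in the sample descriptions. GENCODE 44 matched 61458 of 86369 identifiers; unmatched ones held 1.27% to 1.65% of a library and stayed in the tests.

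Genes passing filterByExpr (minimum count 10) were scaled by TMM and tested with edgeR 4.0.16 in R 4.3.3 (quasi-likelihood F test, batch and siRNA as terms, Benjamini-Hochberg over all tested genes, called under 0.05). Standard errors were taken from the F statistic. The model was tested on simulated data with known changes. It called 8% of simulated 1.25-fold changes, 32% of 1.5-fold, 84% of 2-fold and 96% of 3-fold changes, and 3 unchanged genes. The alternatives included DESeq2 1.42.0. The members and gene lists were chosen with earlier results of these data known.

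Named genes were NAT10, members called for siRNA, the highest and lowest 5 of each subunit for siRNA and 3 for batch, the 3 most and 3 least abundant, all members under 10 CPM, and the largest changes of each list. RPS18, RPL5, RPL11, and members named for retrocopy shares, were also described after their values were seen. Some items are not reported here.

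Same-numbered libraries of the 2 groups deviated together from their group means (r across genes 0.39, 0.38, 0.45 and 0.36). They also share a batch, and batch was not removed, so these values cannot show whether the numbers pair the libraries. No column was left unused (0).

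Adding retrocopy counts by sequence was chosen after the counts had been seen. The rule of assignment was itself revised 2 times after its output was seen, because the best alignment alone gave RPS20P2 to RPL7L1, and then gave RPL7L1 unrelated pseudogenes that aligned over about 300 bases. The final rule follows a pseudogene's name where it names a member and otherwise asks for alignment over 50% of its length. The 3 versions assigned 1846, 1831 and 1440 retrocopies with 12368837, 12368724 and 12349138 counts; the share of counts on the own row moved from 46.3% to 99.9% for RPL7L1 and from 9.98% to 8.74% for RPS20.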

Additional observations from a re-analysis of the deposited data

Results flagged for a closer look

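In groups of 4 libraries, the gap between the most extreme library and the others was compared with Dixon's critical value in 98 groups, and 3 stood out, where chance flags about 1 in 20 groups (4.9 of 98). The median of the small subunit, on the log2 scale relative to the mean over the libraries, was -0.092 in siNAT10 replicate 4, while the other siNAT10 libraries lay between -0.0039 and 0.0093. RPL27A stood at 8629 CPM in siNAT10 replicate 2, below the 10140 to 10330 CPM of the other siNAT10 libraries. RPS14 stood at 4964 CPM in the same library, below the 5858 to 5999 CPM of the others.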

How the results depend on the processing

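No result changed direction past its threshold. The siRNA effect called 315 genes, against 599 with DESeq2, 595 with no filter on low counts, 205 with all libraries thinned to the smallest total, 173 in batch 1 alone, 0 in batch 2 alone (2 libraries a group, edgeR), 15 without the batch term and 75 to 286 with each library left out. In every one of these fits 0 members were called. The replicate block in place of the batch term called 454 genes and 0 members; it changed no call of a member. NAT10 was at -1.58 in batch 2 alone, where it was not called (adjusted p = 0.086), and its range with each library left out was -1.80 to -1.52. The batch difference called 5 members, and 3 to 7 with each library left out. The interaction called 0 genes, and 15 with no filter, none of them a member. The subunit medians ran from -0.086 to -0.007 (small) and from -0.12 to -0.025 (large) with each library left out. Over the members named, 83 of 1029 siRNA values differed in sign from the main value, and 0 of them passed the threshold. Of the 16 members under 10 CPM, 8 could not be tested, and 11 reached 10 CPM with retrocopies added.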
